A study of Nannospalax ehrenbergi and Mus musculus with 25 samples.

Results

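Tumor tissue from the 4 blind mole rats (Spalax) that developed a growth after a carcinogen was compared between 2 diagnoses, fibrosarcoma and granuloma. The members were chosen by the labels alone, as the libraries from the injected side (IS) of animals with either diagnosis, and they make up 4 of the 25 samples of the series and 4 of its 16 Spalax samples. All 4 animals were wild-caught and had received 1 subcutaneous injection of 3-methylcholanthrene (3MCA), a polycyclic hydrocarbon that damages DNA, and for each one a library from the uninjected side (UIS) was also sequenced. The fibrosarcomas came from animal 2240, a female operated on 18 months after injection, and animal 2230, a male operated on after 30 months. The granulomas came from animals 600 and 976, both female, operated on after 14 and 16 months. Ages were not known exactly, each group held 2 animals, and the diagnosis cannot be told apart from the time after injection, with sex differing in 1 of the fibrosarcomas.

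Fibrosarcoma is a malignant tumor of fibroblast-like spindle cells, the usual outcome of a subcutaneous 3MCA injection in rodents. A granuloma is in general a benign mass in which macrophages and fibroblasts wall off material that is not cleared, and it is commonly held in a scar of collagen. The paper's pathology defines the granulomas of these animals as proliferating spindle cells, a fibrosis where inflammation had not fully resolved. It describes the fibrosarcomas as tumors of spindle and epithelioid cells with many mitoses and heavy inflammation. Fibroblasts secrete fibrillar collagen as a procollagen that is hydroxylated and folded in the endoplasmic reticulum, cleaved outside the cell, and assembled with small proteoglycans such as lumican that set fibril spacing. The comparison asked which genes set the malignant from the benign growth in this cancer-resistant species.

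The 4 tumor libraries held 20613563 to 22246843 reads assigned to genes, and 1 read was worth 0.600 to 0.726 on the normalised read count scale, so depth was nearly equal. The label for all of them is muscle, but 6 skeletal muscle markers (among them Ckm, Acta1 and Mylpf) summed to 175 to 223 in the fibrosarcomas and 347 to 2482 in the granulomas, against at least 677690 in every UIS library. The fibroblast markers Pdgfra, Col1a1, Col3a1, Dpt and Thy1 summed to between 58629 and 1480700 in the tumors and at most 20873 on the UIS. Col1a1 and Col3a1 made up most of each tumor sum, and Pdgfra and Dpt were also above every UIS library in each tumor. Thy1 was not. It read 44.9 in fibrosarcoma 2240, 153 in granuloma 600 and 86.4 in granuloma 976, against 369 to 2051 on the UIS. Only fibrosarcoma 2230, at 12547, was above that range. Values below are normalised read counts, given in the order 2240, 2230 for the fibrosarcomas and 600, 976 for the granulomas, and log2 differences are fibrosarcoma minus granuloma on log2(value + 1), with the standard error of the limma fit. In bulk tissue, fewer cells of a type and less RNA per cell cannot be told apart. Of 11 epithelial and keratinocyte markers tested 10 were higher in the fibrosarcomas. Only 2 were higher without overlap (18.2% of the list, near the 16.7% of all genes tested). The list median was 0.69 and lay between 0.19 and 2.45 when 1 library was left out. The keratin gene Krt14 read 11.7 and 22.8 in the fibrosarcomas and 0.726 and 88.8 in the granulomas and 0 on the UIS of all these animals, whereas Krt5 was at 0 on both sides in each of them. DESeq2 called 1 gene of the list, Dsp (desmoplakin, of desmosomes), which read 30.7 and 1391 in the fibrosarcomas and 34.8 and 4.83 in the granulomas, so fibrosarcoma 2230 alone was high. The part of epithelial cells in the differences was not tested.

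The clearest contrast lay in the collagenous matrix, which was far lower in both fibrosarcomas. Lum (lumican, a small proteoglycan bound to collagen fibrils) read 1302 and 2843 in the fibrosarcomas and 54200.3 and 52461 in the granulomas, a 25.7-fold lower mean. Postn (periostin, a matrix protein of scars and tumor stroma) read 6841 and 4003 in the fibrosarcomas and 214855 and 79754 in the granulomas. Mki67, which encodes the proliferation antigen Ki-67, went the other way at 3823 and 3859 in the fibrosarcomas and 1286 and 1180 in the granulomas. Both fibrosarcomas lay on the same side of both granulomas for each of these genes.

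Across 14562 genes tested, limma called 0 at an adjusted p of 0.05 (0% of all genes), and its lowest adjusted p was 0.791. An unadjusted p under 0.05 was reached by 591 genes, 245 of them higher and 346 lower in fibrosarcoma. The edgeR quasi-likelihood test on the recovered reads called 0 as well, with 606 at an unadjusted p under 0.05. DESeq2 on the same reads called 153 genes (1.05%), 39 higher (0.268%) and 114 lower (0.783%). Values of the 2 groups did not overlap in 147 of those 153, as they did not in 4576 of all genes tested (31.4%). Because limma was the main test, "higher" and "lower" below describe the values, and a DESeq2 call is named as one. The split at an unadjusted p under 0.05 turned to 323 higher and 296 lower when libraries were scaled by total reads, which moved the median difference of all genes from 0.03 to 0.13 on the log2 scale.

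**Figure D1:**
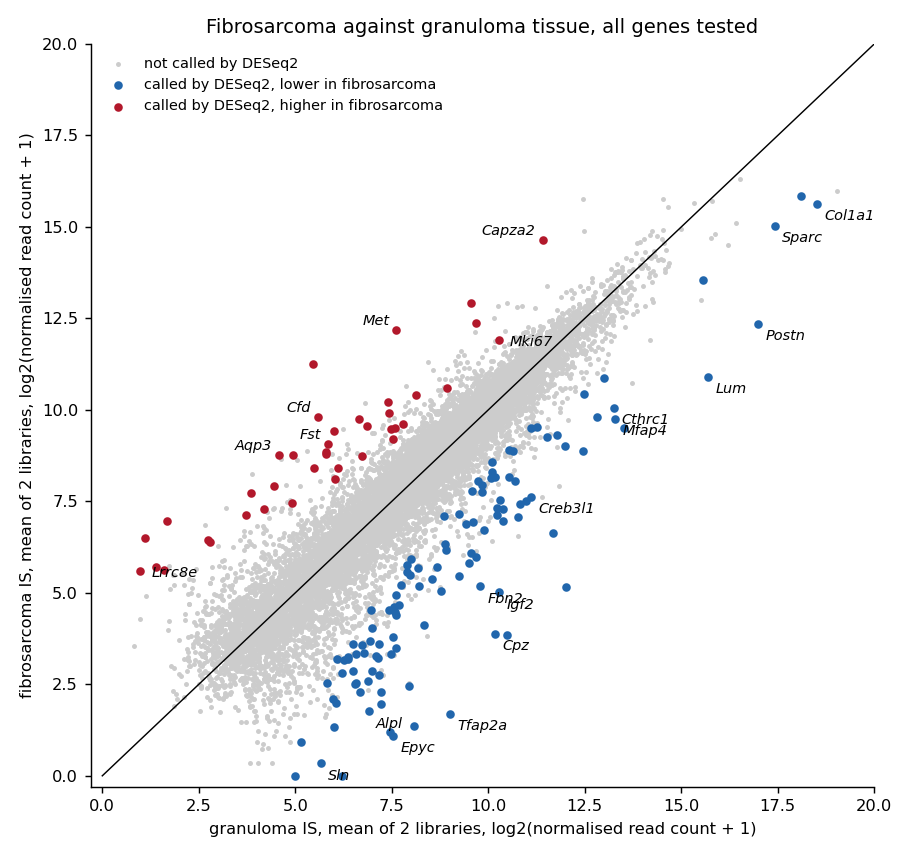
Mean log2(normalised read count + 1) of the 2 granuloma libraries (horizontal) against that of the 2 fibrosarcoma libraries (vertical) for the 14562 genes tested, with the line of equal level; blue and red points are the 114 and 39 genes that DESeq2 called lower and higher in fibrosarcoma. The blue points reach into the most abundant genes (Col1a1, Sparc, Postn), whereas most red points lie at middle levels.

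Among the 153 calls, 17 were also called in each of the 4 DESeq2 fits that left out 1 library, 13 lower and 4 higher. Those with a gene symbol were Lum, Postn, Cthrc1, Creb3l1, Mfap4, Cpz, Tfap2a, Megf6, Pgbd5 and Cped1 on the lower side and Cfd on the higher side. Leaving out the male, fibrosarcoma 2230, kept 94 of the 153 calls and gave 357 in all. Leaving out fibrosarcoma 2240 kept 117 and gave 594, leaving out granuloma 600 kept 43 and gave 70, and leaving out granuloma 976 kept 51 and gave 145. The calls thus depended on which library was present, and the number without a fibrosarcoma library was larger than with both. Each of these fits held 1 animal in 1 group and took its spread from the other group alone. The kept and lost calls are therefore no plain measure of stability. Of the 153 calls 110 were lost without granuloma 600 and 102 without granuloma 976.

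The fibrillar collagens, the rope-like collagens that give tissue its tensile strength, were lower in fibrosarcoma in 11 of 11 genes, and in all 11 the groups did not overlap (14.7% of all genes tested were lower without overlap). Their median log2 difference was -2.47 against 0.03 for all genes tested. Col1a1, the main chain of type I collagen, read 30015 and 85128 in the fibrosarcomas and 677303 and 205712 in the granulomas, and DESeq2 called it lower with an adjusted p of 0.0249. Its partner chain Col1a2 read 57179 and 59958 in the fibrosarcomas and 340917 and 233915 in the granulomas (DESeq2 adjusted p = 7.8e-05). Both fibrosarcomas held nearly the same Col1a2 level, whereas their Col1a1 levels differed.

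Col3a1, the type III chain of young scar tissue, read 19532 and 213119 in the fibrosarcomas and 790955 and 367025 in the granulomas and was not called by DESeq2. Its level in fibrosarcoma 2230 was much nearer the granulomas than in fibrosarcoma 2240. Col5a2, a chain of the type V collagen that starts fibrils, read 9375 and 15265 in the fibrosarcomas and 46445 and 50123 in the granulomas, and DESeq2 called it, as it did Col24a1 and Col27a1. None of these 5 collagen calls held in all leave-one-out fits, with Col1a1 and Col1a2 losing theirs only without granuloma 600. Together the 11 genes took 0.926% and 3.05% of the summed values of the fibrosarcoma libraries and 13% and 6.73% of the granuloma libraries. The low level was relative to the granulomas only, since Col1a1 on the UIS of the fibrosarcoma animals was 3455 and 1143, below both tumors. The list median stayed between -2.54 and -2.02 when any 1 library was left out and was -2.38 with libraries scaled by total reads.

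**Figure D2:**
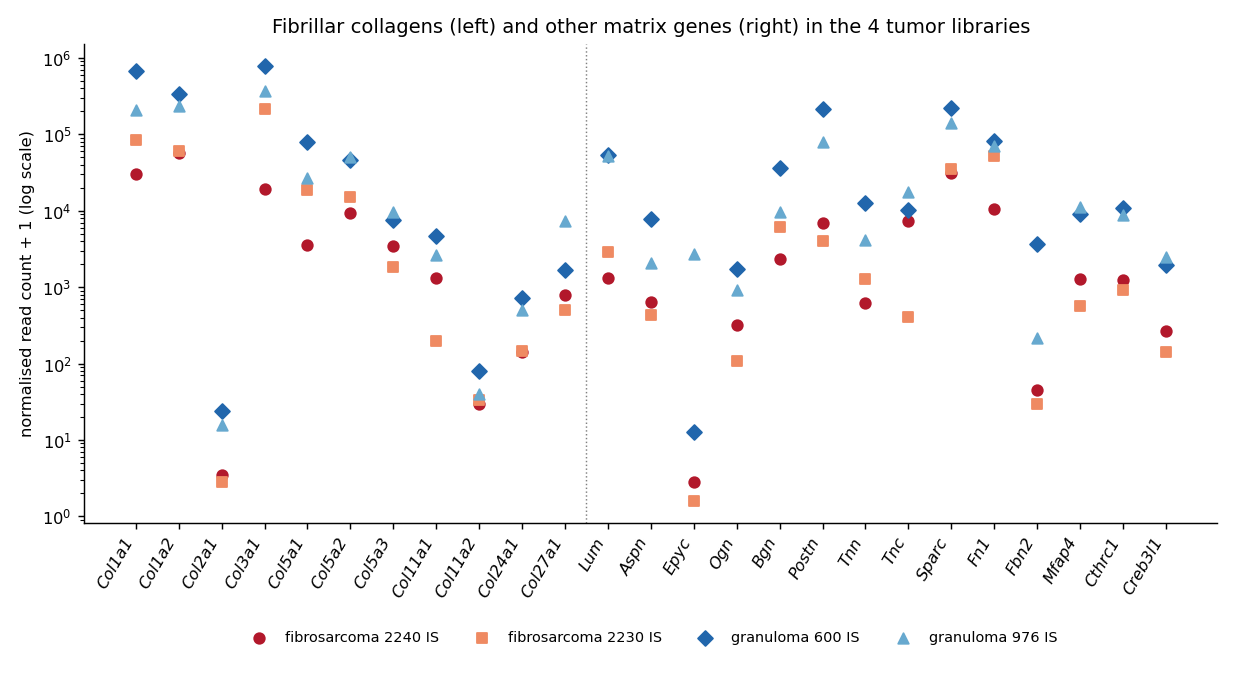
Normalised read count + 1 (log scale) of the 11 fibrillar collagens (left of the dotted line) and 14 other matrix genes in each of the 4 tumor libraries; each point is 1 library. Red and orange fibrosarcoma points lie below the blue granuloma points for each gene drawn, by more than 10-fold for Lum and Postn.

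Some single genes known to act on procollagen or in the secretory pathway were lower, but they were not a list. The nearest list, the unfolded protein and integrated stress response, was lower in 20 of 29. Only 5 were lower without overlap (17.2% of the list, near the 14.7% of all genes tested). The median of -0.30 turned to 0.15 without fibrosarcoma 2230 and to 0.12 without granuloma 600. Creb3l1, a transcription factor of the secretory pathway that drives type I collagen genes, read 267 and 142 in the fibrosarcomas and 1930.1 and 2509.8 in the granulomas, a log2 difference of -3.49 ± 0.43 with a DESeq2 adjusted p of 2.6e-07. Cthrc1, a secreted protein of fibroblasts in healing wounds, read 1231 and 923 in the fibrosarcomas and 10918 and 8780.2 in the granulomas, the smallest unadjusted p of any named gene in the limma fit. P4ha1 and P4ha2, the catalytic subunits of the enzyme that hydroxylates proline in procollagen, were lower without overlap (-1.08 and -1.23 on the log2 scale) but not called by DESeq2. The folding enzymes of the endoplasmic reticulum Fkbp7 (321 and 252 in the fibrosarcomas and 2019 and 1082 in the granulomas) and Fkbp11 (502 and 431 in the fibrosarcomas and 2077 and 1208 in the granulomas), the zinc transporter Slc39a13 and the export site gene Sec16b were called lower by DESeq2, and these 4 were chosen after their values were seen.

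Of the other collagens, 17 of 19 tested were lower, with a median log2 difference of -1.07. In 10 the groups did not overlap (52.6% of the list, against 14.7% of all genes tested). Col7a1, which anchors epithelium to stroma, read 1009 and 216 in the fibrosarcomas and 1752 and 18080.1 in the granulomas and was called by DESeq2 together with Col8a2 and Col23a1, but the level in granuloma 976 set most of its difference. The basement membrane chain Col4a5 was the 1 collagen gene that DESeq2 called higher, at 285 and 688 in the fibrosarcomas and 97.3 and 30.2 in the granulomas (DESeq2 adjusted p = 0.042). Col4a5 was thus higher in fibrosarcoma while the fibrillar chains were lower.

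The small leucine-rich proteoglycans, which coat collagen fibrils, were lower in 10 of 11 genes tested. In 6 the groups did not overlap (54.5% of the list, against 14.7% of all genes tested). The median of -1.22 was -0.51 without fibrosarcoma 2240 and -2.68 without fibrosarcoma 2230. Lum had a log2 difference of -4.79 ± 0.51 and a DESeq2 adjusted p of 6.5e-14. Aspn (asporin) read 629 and 426 in the fibrosarcomas and 7883 and 2078 in the granulomas and Ogn (osteoglycin) 323 and 107 in the fibrosarcomas and 1749 and 915 in the granulomas, and DESeq2 called both, Aspn in all but the fit without granuloma 600. Epyc (epiphycan, a cartilage proteoglycan) was also called but rested on granuloma 976 alone, with 1.84 and 0.6 in the fibrosarcomas and 11.6 and 2729 in the granulomas. Decorin, the most widespread of these proteoglycans, did not separate the groups: Dcn read 3483 and 55605 in the fibrosarcomas and 21124 and 28090.5 in the granulomas.

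Matricellular proteins, which signal to cells from the matrix without building fibers, were lower in 20 of 23 genes tested. In 9 the groups did not overlap (39.1% of the list, against 14.7% of all genes tested). The median was -1.31 (-0.69 without granuloma 600). Postn had a log2 difference of -4.64 ± 0.70 (DESeq2 adjusted p = 1.0e-09). Sparc, a collagen-binding protein needed for procollagen handling, read 31299.7 and 35379 in the fibrosarcomas and 223079 and 139207 in the granulomas, and Tnn (tenascin N) read 627 and 1268 in the fibrosarcomas and 12679 and 4179 in the granulomas. DESeq2 called these 3 and no other gene of the list, and the calls of Sparc and Tnn were lost without granuloma 600. Tnc (tenascin C) shows how unequal the fibrosarcomas were, since it read 7266 and 403 in the fibrosarcomas and 10125 and 17759.9 in the granulomas. Thbs1 and Tgfbi, by contrast, overlapped between the groups, with log2 differences of -0.01 and -0.10.

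Elastic fiber and lysyl oxidase genes were lower in 14 of 20, with a median of -0.71 (-0.34 without fibrosarcoma 2240). In 9 the groups did not overlap (45% of the list, against 14.7% of all genes tested). Mfap4, a microfibril protein, read 1292 and 573 in the fibrosarcomas and 9020.3 and 11138 in the granulomas, and Fbn2, the fibrillin of developing tissue, read 43.6 and 28.2 in the fibrosarcomas and 3621 and 217 in the granulomas, and DESeq2 called both. In Mfap4 the libraries of each group were close to each other, whereas Fbn2 was far higher in granuloma 600 than in 976. The study's own network of 7 matrix genes was drawn from these samples, so its direction is not independent evidence. Of those 7 genes 4 passed the filter on low values, and all 4 were lower without overlap (14.7% of all genes tested were). DESeq2 called Lum, Aspn and Sfrp1 lower (0.783% of all genes tested were called lower). It did not call Fbln5, at 116 and 263 in the fibrosarcomas and 796 and 573 in the granulomas. Kera (keratocan) was listed at 0 and 0 against 140.1 and 0.604, so granuloma 600 held nearly all of it. The tendon gene Tnmd (tenomodulin) was listed at 0 in both fibrosarcomas and at 382 and 13.3 in the granulomas.

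Among 21 metalloproteases that cut matrix and their inhibitors 9 were higher and 12 lower, and the median was -0.18, turning to 0.38 without fibrosarcoma 2240. Mmp2, a gelatinase made by stromal cells, read 23924 and 25584 in the fibrosarcomas and 14132 and 17476 in the granulomas, whereas Mmp9, a gelatinase of neutrophils and macrophages, read 728 and 337 in the fibrosarcomas and 1249.9 and 3823 in the granulomas. Mmp17 was the only one DESeq2 called, at 7.38 and 4.8 in the fibrosarcomas and 50.1 and 106 in the granulomas. Mmp2 and Mmp9 thus lay on opposite sides, each without overlap and neither called. Of 15 ADAMTS proteases, which cut proteoglycans and procollagen ends, 9 were lower. In 7 they were lower without overlap (46.7% of the list, against 14.7% of all genes tested). The median of -0.90 stayed between -1.45 and -0.34 when 1 library was left out. Adamts8 read 2.46 and 3.6 in the fibrosarcomas and 43.6 and 97.3 in the granulomas and was the 1 that DESeq2 called, and Adamts2, which cleaves procollagen, read 365 and 694 in the fibrosarcomas and 1556 and 2318 in the granulomas and was not called.

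Proliferation genes were higher in the fibrosarcomas in 40 of 40, and in 37 the groups did not overlap (16.7% of all genes tested were higher without overlap). The median log2 difference was 0.87, against 0.03 for all genes tested, and lay between 0.75 and 1.00 when any 1 library was left out. Mki67 had a log2 difference of 1.64 ± 0.27 and was the 1 member that DESeq2 called (adjusted p = 0.00871), a call that was lost when any 1 library was left out. On the UIS of the same animals the median was -0.46, so the uninjected muscle did not show the same direction. Granuloma UIS 976 stood out there, with 0.0488% of its summed values in this list. The share was 0.0242% in granuloma UIS 600, and 0.0200% and 0.0195% in the UIS of fibrosarcoma animals 2240 and 2230.

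The log2 differences in the list ran from 0.36 (Birc5, an inhibitor of apoptosis that acts in mitosis) to 1.64 (Mki67). Mcm2, a subunit of the replication helicase, read 1694 and 1512 in the fibrosarcomas and 743 and 634 in the granulomas. Tyms, which makes thymidylate for DNA, read 951 and 2045 in the fibrosarcomas and 501 and 515 in the granulomas. Cdk1, the kinase of mitotic entry, read 1504 and 1585 in the fibrosarcomas and 976 and 734 in the granulomas, and Tpx2, a spindle assembly factor, read 2749 and 4247 in the fibrosarcomas and 1583 and 1181 in the granulomas. In these genes each fibrosarcoma exceeded each granuloma, and the exceptions in the list were Ccnb1, Cenpe and Mcm7, where fibrosarcoma 2230 or granuloma 976 crossed over. Outside the list DESeq2 called the replication licensing gene Cdc6 (610.4 and 562 in the fibrosarcomas and 171 and 201 in the granulomas) and the cohesin acetyltransferase gene Esco2 (347 and 522 in the fibrosarcomas and 115 and 97.3 in the granulomas), both chosen after their values were seen. The granulomas, in turn, held more Mki67 than the UIS muscle of the same animals (13.3 and 30.6).

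Genes of homologous recombination and the Fanconi pathway, which repair DNA crosslinks and broken forks during replication, were higher in 26 of 33. In 14 of the 33 they were higher without overlap (42.4%, against 16.7% of all genes tested). The median was 0.46 and none was called. Brca1 read 768 and 844 in the fibrosarcomas and 424 and 535 in the granulomas and Brip1, its helicase partner, 306 and 257 in the fibrosarcomas and 107 and 135 in the granulomas. Fancc, a core complex gene, went the other way at 88.5 and 55.8 in the fibrosarcomas and 226 and 172 in the granulomas. The p53 list was split, 14 higher and 7 lower with a median of 0.09 (-0.30 without fibrosarcoma 2240) and none called. Cdkn1a, the p53 target that blocks the cell cycle, overlapped between the groups at 486 and 299 in the fibrosarcomas and 338 and 126 in the granulomas, and Perp, another target, read 779 and 683 in the fibrosarcomas and 73.3 and 439 in the granulomas. Of the genes of the aryl hydrocarbon receptor, which binds 3MCA, 6 passed the filter and none was called, with Ahr itself at 345 and 630.3 in the fibrosarcomas and 802 and 706 in the granulomas.

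**Figure D3:**
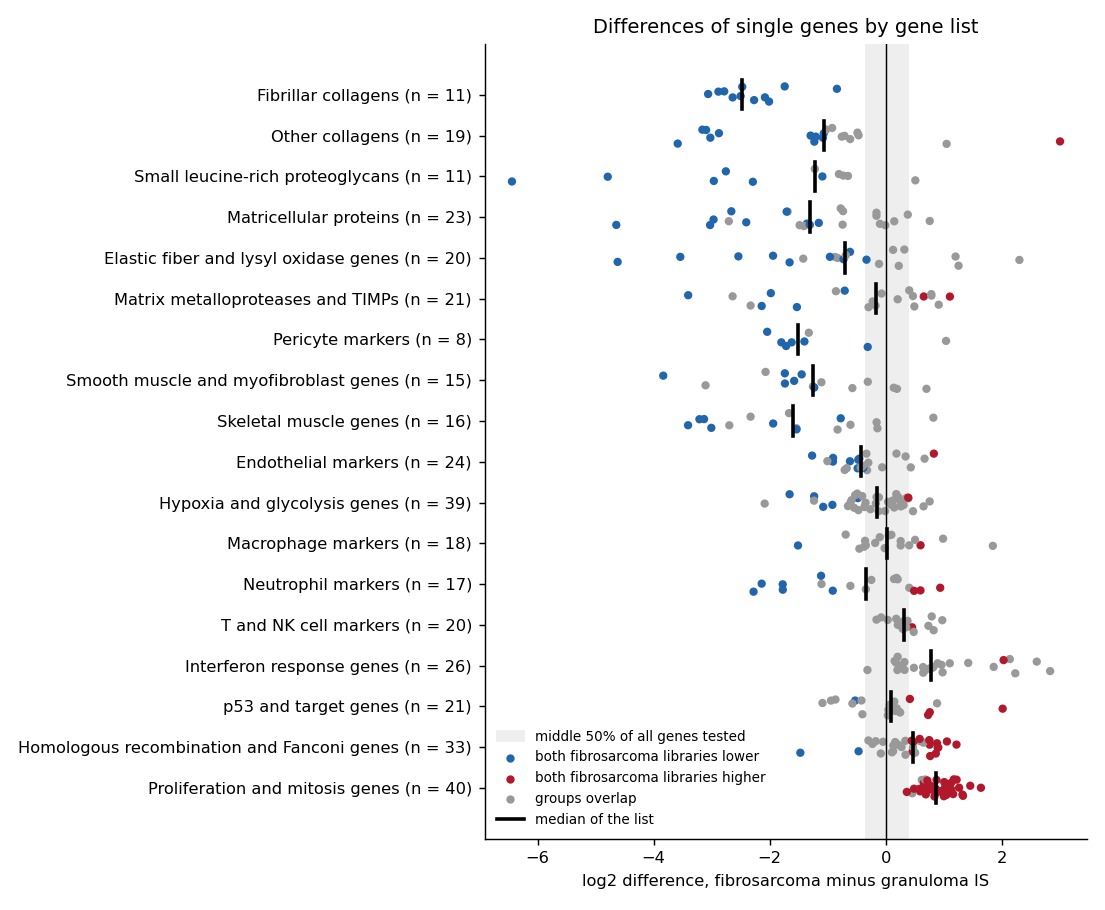
Log2 difference (fibrosarcoma minus granuloma) of each tested gene in 18 gene lists; each point is 1 gene, coloured by whether both fibrosarcomas were higher, both lower or the groups overlapped, the black bar is the list median and the grey band holds the middle 50% of all genes tested. The 11 fibrillar collagens lie wholly left of the band, whereas the 40 proliferation genes lie to the right of 0.

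Markers of cells around vessels were lower in the fibrosarcomas. Of 8 pericyte markers 7 were lower, with a median of -1.51 (-0.88 without fibrosarcoma 2240). In 6 the groups did not overlap (75% of the list, against 14.7% of all genes tested lower without overlap). Rgs5 read 791 and 705 in the fibrosarcomas and 1928 and 3133 in the granulomas and was the 1 that DESeq2 called, and Pdgfrb, the receptor through which pericytes are recruited, read 875 and 729.8 in the fibrosarcomas and 1854 and 3269 in the granulomas. Endothelial markers were lower in 19 of 24, with none called and a smaller median of -0.43 (-0.17 without granuloma 600). In 8 they were lower without overlap (33.3% of the list, against 14.7% of all genes tested). Pecam1 read 1477 and 916 in the fibrosarcomas and 2048 and 1555 in the granulomas.

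Smooth muscle and skeletal muscle genes also had negative medians, -1.25 and -1.60, but granuloma 600 was the highest library in 13 of 15 and 13 of 16 of them. Without granuloma 600 the medians were -0.23 and -0.08. Acta2, smooth muscle actin, read 502 and 245 in the fibrosarcomas and 2528 and 278 in the granulomas. DESeq2 called Actn3, Tnnt3 and Neb of the skeletal list lower, as well as Sln (sarcolipin, an inhibitor of the calcium pump of muscle) and Ca3 (chosen after its values were seen), which are muscle genes outside it. Sln read 0 and 0.6 in the fibrosarcomas and 48.6 and 50.8 in the granulomas in the tumors and 25592 and 31376 on the UIS of the fibrosarcoma animals. The part of adhering muscle in these muscle gene calls was not tested.

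Genes called higher in fibrosarcoma were fewer than those called lower. The 2 fibrosarcoma libraries differed at least 4-fold from each other in 15 of the 39 higher and 13 of the 114 lower calls, and the 2 granuloma libraries in 2 of the higher and 28 of the lower calls. Cfd (complement factor D, the protease that starts the alternative complement pathway) was called in all 4 leave-one-out fits, at 1075 and 745 in the fibrosarcomas and 40.6 and 55 in the granulomas, a log2 difference of 4.21 ± 0.44 with a DESeq2 adjusted p of 1.9e-12. It also stood at 464 and 515 on the UIS of the fibrosarcoma animals and 526 and 429.9 on that of the granuloma animals, so the granulomas were the low libraries. Cfd is also a marker of fat cells and was the 1 member of the adipocyte list that DESeq2 called. Of the 9 genes of that list tested 6 were higher and 3 lower, with a median of 0.23 (-0.19 to 1.02 when 1 library was left out). Without overlap 1 was higher (11.1%, against 16.7% of all genes tested). The adipocyte markers Adipoq, Plin1 and Cidec, near the floor in all 4 tumors, summed to 3.07 and 2.4 in the fibrosarcomas and 4.36 and 7.85 in the granulomas. The part of fat cells in the Cfd difference was not tested. Sema3e, a ligand of plexin D1, read 374 and 512 in the fibrosarcomas and 57.3 and 15.1 in the granulomas, and Socs2, an inhibitor of cytokine signalling, read 1213 and 769 in the fibrosarcomas and 156 and 187 in the granulomas. Both were well separated between the groups, though the Sema3e call was lost without granuloma 976 and that of Socs2 without either granuloma.

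Among other higher calls, both fibrosarcomas stood above both granulomas in the next 3 genes, and each call was lost in at least 3 of the leave-one-out fits. Gpr64, an adhesion G protein-coupled receptor, read 261 and 806 in the fibrosarcomas and 53 and 55.6 in the granulomas. Lrrc8e, a subunit of volume-regulated anion channels, read 37.5 and 59.4 in the fibrosarcomas and 1.45 and 0.604 in the granulomas, so the granulomas held 3 reads of it in all. Prps2, which makes the ribose precursor of nucleotides, read 896 and 556 in the fibrosarcomas and 194 and 163 in the granulomas and was chosen after its values were seen. By contrast, 2230 carried most of the signal of Aqp3, an aquaglyceroporin (101 and 1820 in the fibrosarcomas and 16 and 32.6 in the granulomas), and of the desmosomal cadherin gene Dsc3 (58.4 and 333 in the fibrosarcomas and 13.8 and 10.9 in the granulomas). Fst (follistatin, which binds activin) read 3329 and 84.6 in the fibrosarcomas and 80.6 and 39.3 in the granulomas. Its call, like those of Met, Capza2, St7 and Krit1, was lost without 2240.

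Genes of growth control called lower were led by Tfap2a, the transcription factor AP-2 alpha, with 3.69 and 1.2 in the fibrosarcomas and 763 and 344 in the granulomas and a log2 difference of -7.32 ± 0.79 (DESeq2 adjusted p = 2.4e-15). Cpz, a carboxypeptidase that has a Wnt-binding domain, read 20.9 and 9 in the fibrosarcomas and 2419 and 552 in the granulomas, and Sfrp1, a secreted Wnt inhibitor, read 84.8 and 128 in the fibrosarcomas and 367 and 2429 in the granulomas. Smo, the signal transducer of hedgehog, read 158 and 24 in the fibrosarcomas and 882 and 752 in the granulomas. The Sfrp1 call was lost without granuloma 976 and the Smo call without either granuloma. Of 16 Notch and hedgehog genes 14 were lower and Smo was the 1 called, with a list median of -0.66. Of 23 Wnt genes 14 were lower, with a median of -0.39.

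Secreted growth factors were uneven within the granulomas. Igf2, the fetal growth factor, read 14.8 and 65.4 in the fibrosarcomas and 17164 and 89.4 in the granulomas, so a single library, granuloma 600, carried the DESeq2 call (adjusted p = 0.000198). Its binding protein gene Igfbp2 read 28.3 and 36.6 in the fibrosarcomas and 916 and 205 in the granulomas and was lower in both fibrosarcomas with a smaller gap between the granulomas. Ptn (pleiotrophin, a heparin-binding growth factor) read 309 and 1721 in the fibrosarcomas and 21918 and 6188 in the granulomas and was chosen after its values were seen. Among receptor tyrosine kinases Ntrk2 (7.99 and 15.6 in the fibrosarcomas and 555 and 36.3 in the granulomas) and Fgfr3 (12.9 and 18.6 in the fibrosarcomas and 192 and 81.6 in the granulomas) were called lower, and only Met was called higher. Alkaline phosphatase, Alpl, read 6.15 and 0.6 in the fibrosarcomas and 87.8 and 161 in the granulomas, with more on the UIS (622 and 641 and 1353 and 1695).

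Other genes with small limma p-values were lower with little spread within either group. Megf6 read 185 and 94.7 in the fibrosarcomas and 1432 and 2149 in the granulomas, Tmem119, a membrane protein of osteoblasts and microglia, read 131 and 194 in the fibrosarcomas and 990.1 and 1421 in the granulomas, and Rgma, a BMP co-receptor, read 269.9 and 258 in the fibrosarcomas and 2138 and 1301 in the granulomas. Pgbd5, a domesticated transposase gene, read 78.7 and 56.4 in the fibrosarcomas and 585 and 975 in the granulomas. Each of these 4 differed by over 2 on the log2 scale, and none reached an adjusted p of 0.05 in limma.

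Distances between the libraries did not follow the diagnosis. The 2 fibrosarcomas were the most distant pair of the 6, with a root mean square log2 difference of 1.51 over the genes tested, and fibrosarcoma 2240 and granuloma 976 the nearest, at 1.12. The granulomas differed from each other by 1.17. Fibrosarcoma 2230 had 167 genes at least 4-fold above and 374 at least 4-fold below all 3 other tumors, against 130 and 144 for fibrosarcoma 2240, 114 and 184 for granuloma 600, and 68 and 46 for granuloma 976. Thy1, a fibroblast surface glycoprotein, illustrates this at 44.9 and 12547 in the fibrosarcomas and 153 and 86.4 in the granulomas, and DESeq2 called it even though the groups overlapped.

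T and NK cell markers were lowest in granuloma 600 in 20 of 20 and highest in granuloma 976 in 19, against 3700 and 2745 of the 14562 genes tested for these positions. Cd3e, a chain of the T cell receptor complex, read 23.4 and 55.8 in the fibrosarcomas and 8.71 and 89.4 in the granulomas, and the regulatory T cell factor Foxp3 17.2 and 65.4 in the fibrosarcomas and 13.1 and 106 in the granulomas. The list median was 0.31 with all libraries, 1.96 without granuloma 976 and -1.37 without granuloma 600. It was also negative, -0.13, without fibrosarcoma 2230, so its direction turned with the library left out.

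Interferon response genes had a median of 0.78, and 25 of 26 were higher in fibrosarcoma. Only Oasl was higher without overlap (3.8% of the list, below the 16.7% of all genes tested). Granuloma 600 was the lowest library in 24 of the 26. Cxcl10, an interferon-induced chemokine that attracts T cells, read 1037 and 199.7 in the fibrosarcomas and 6.53 and 1253 in the granulomas, and Ifit2, an antiviral protein, read 136 and 87.6 in the fibrosarcomas and 0.726 and 190.3 in the granulomas. Without granuloma 600 the median was -0.44, and without granuloma 976 it was 2.11. Antigen presentation genes were likewise lowest in granuloma 600 in 15 of 15, with the class II chaperone Cd74 at 7394 and 35454 in the fibrosarcomas and 3064 and 35079.9 in the granulomas.

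Macrophage markers split each diagnosis, with a list median of 0.02 that ranged from -0.95 to 0.82 when 1 library was left out, and none called. C1qa, a complement chain made by tissue macrophages, read 1551 and 11806 in the fibrosarcomas and 2957 and 10413 in the granulomas, and the scavenger receptor Mrc1 2941 and 22442 in the fibrosarcomas and 4048 and 9319 in the granulomas. Fibrosarcoma 2230 and granuloma 976 were the high libraries for both. Cd68, a lysosomal protein of macrophages, read 2736 and 2339.9 in the fibrosarcomas and 1469 and 1898 in the granulomas. It was the 1 member higher without overlap (5.6% of the list, below the 16.7% of all genes tested). Of 17 neutrophil markers 7 were higher and 10 lower, with a median of -0.34 (-0.67 to -0.11 when 1 library was left out). Without overlap 3 were higher (17.6%, near the 16.7% of all genes tested) and 6 lower (35.3%, against 14.7% of all genes tested). S100a8, a calcium-binding protein of neutrophils, was among the 6, at 1718 and 136 in the fibrosarcomas and 2901 and 1902 in the granulomas. No marker of these immune lists was called by DESeq2 apart from Cfd in the complement list.

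Hypoxia and glycolysis genes paired the libraries in another way. Fibrosarcoma 2240 was the highest in 17 of 39 and granuloma 600 in 20, while fibrosarcoma 2230 was the lowest in 22 and granuloma 976 in 11. Vegfa, the angiogenic factor that low oxygen induces, read 5477 and 379 in the fibrosarcomas and 5255 and 841 in the granulomas, and Ca9, a carbonic anhydrase of hypoxic cells, 249 and 1.8 in the fibrosarcomas and 396 and 30.8 in the granulomas. Ldha, which turns pyruvate to lactate, read 23629.7 and 4979.7 in the fibrosarcomas and 12842 and 6748 in the granulomas. The list median was -0.16, from -0.89 to 0.58 when 1 library was left out, and DESeq2 called none of its 39 genes.

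**Figure D4:**
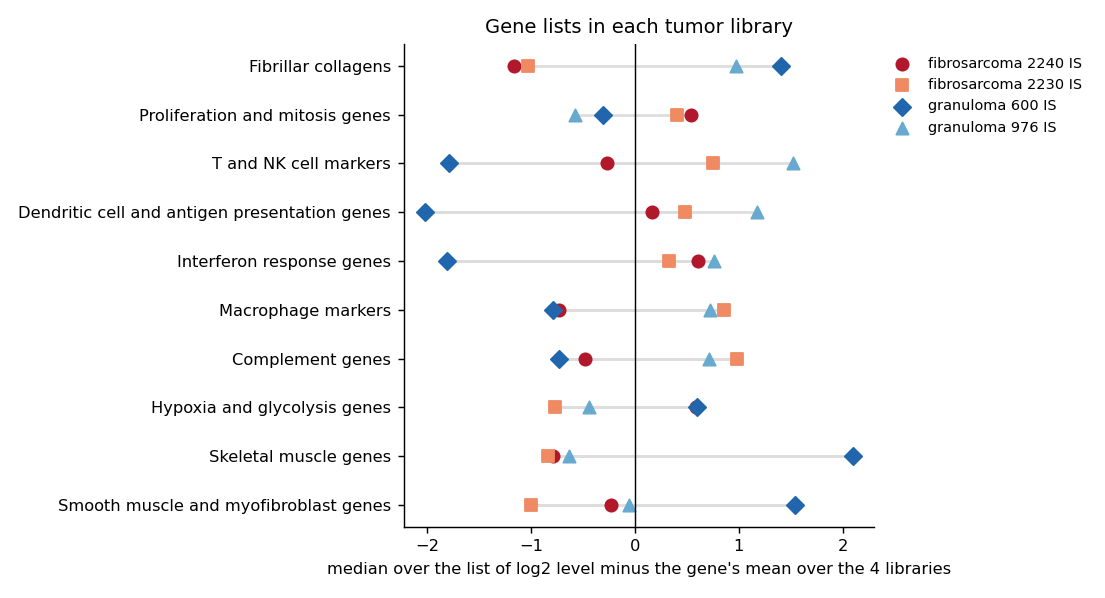
Level of 10 gene lists in each tumor library, as the median over the list of the log2 level minus the gene's mean over the 4 libraries; each symbol is 1 library. The fibrillar collagens and the proliferation genes separate the fibrosarcoma from the granuloma symbols, as the 2 muscle lists do by a narrow margin, with T cell, antigen presentation and interferon genes lowest in granuloma 600.

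Fibrosarcoma 2240 stood apart in 2 blocks of genes that neighbour each other in the mouse genome, a pattern found after the values were seen. Gene order was taken from mouse because no Spalax assembly was used, and 11507 of the 14562 genes tested were matched to a mouse gene. In a running median over 7 neighbouring genes of each library's log2 level minus the median of the other 3 tumors, 39 of 11387 windows reached 2 in fibrosarcoma 2240, against 12 in fibrosarcoma 2230, 7 in granuloma 600 and 2 in granuloma 976. The peak, 6.03, lay at Met, which encodes the receptor for hepatocyte growth factor.

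The first block ran over 8 genes of mouse chromosome 6, Tes, Cav2, Cav1, Met, Capza2, St7, Cftr and Cttnbp2. Met read 56798 in fibrosarcoma 2240, against 375 in fibrosarcoma 2230, 107 and 356 in the granulomas and 430.4 on the UIS of the same animal. Capza2, an actin capping subunit, read 190586 against at most 3398 in the other tumors, and Cav1, the main protein of caveolae, 116474 against at most 3406. Even Cftr, an epithelial chloride channel that the other tumors barely held (at most 15.7), reached 676. Over the 8 genes, fibrosarcoma 2240 exceeded the next tumor 23.5 to 152-fold (median 38.6) and its own UIS by a median of 112-fold. They took 3.42% of the summed values of that library, against 0.0453% to 0.0697% in the other tumors.

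The second block lay on mouse chromosome 5, and 8 of its genes are described here, Cdk6, Fam133b, Rbm48, Gatad1, Ankib1, Krit1, Akap9 and Fzd1. Cdk6, the cyclin D kinase of the transition into DNA replication, read 7499 in fibrosarcoma 2240 and at most 206 in the other tumors. Krit1 read 25962 against at most 1080. These 8 genes exceeded the next tumor 14.9 to 36.4-fold (median 18.0) and took 1.02% of the library, against 0.0390% to 0.0486%. All genes named in both blocks were above every Spalax muscle library.

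At the first block the levels fell back past its end in mouse order. Just past Cttnbp2, Lsm8 read 3023 against at most 589 in the other tumors, and the next gene, Tspan12, was within their range at 229. Just past Fzd1, Cdk14 was at 326 against 395, 367 and 486, but the next 3 genes were higher again in fibrosarcoma 2240. Cldn12 read 2238 against at most 806 in the other tumors, Gtpbp10 982 against at most 208 and Cfap69 647 against at most 228. Cdk6 was the first gene matched on mouse chromosome 5, so the other edge of this block was not seen. Farther before Tes, past Tfec, which was within the range of the other tumors, and Mdfic, which was below it, the running median of fibrosarcoma 2240 again reached 2.35 in a run from Rpa3 to Tmem106b and 2.65 in one from Col1a2 to Asns. The ends of a run are centers of windows and need not be raised themselves. In fibrosarcoma 2240 Col1a2 was at -2.03 against the median of the other tumors, and Dlx5, inside that run, was at -2.50. In human both blocks lie on the long arm of the same chromosome, which is background and not a measurement here. DESeq2 called Met, Capza2, St7 and Krit1 higher in fibrosarcoma, and all 4 calls were lost without this library. Without granuloma 600 those of Capza2, St7 and Krit1 were lost too, and without granuloma 976 those of St7 and Krit1. What set these levels was not tested.

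**Figure D5:**
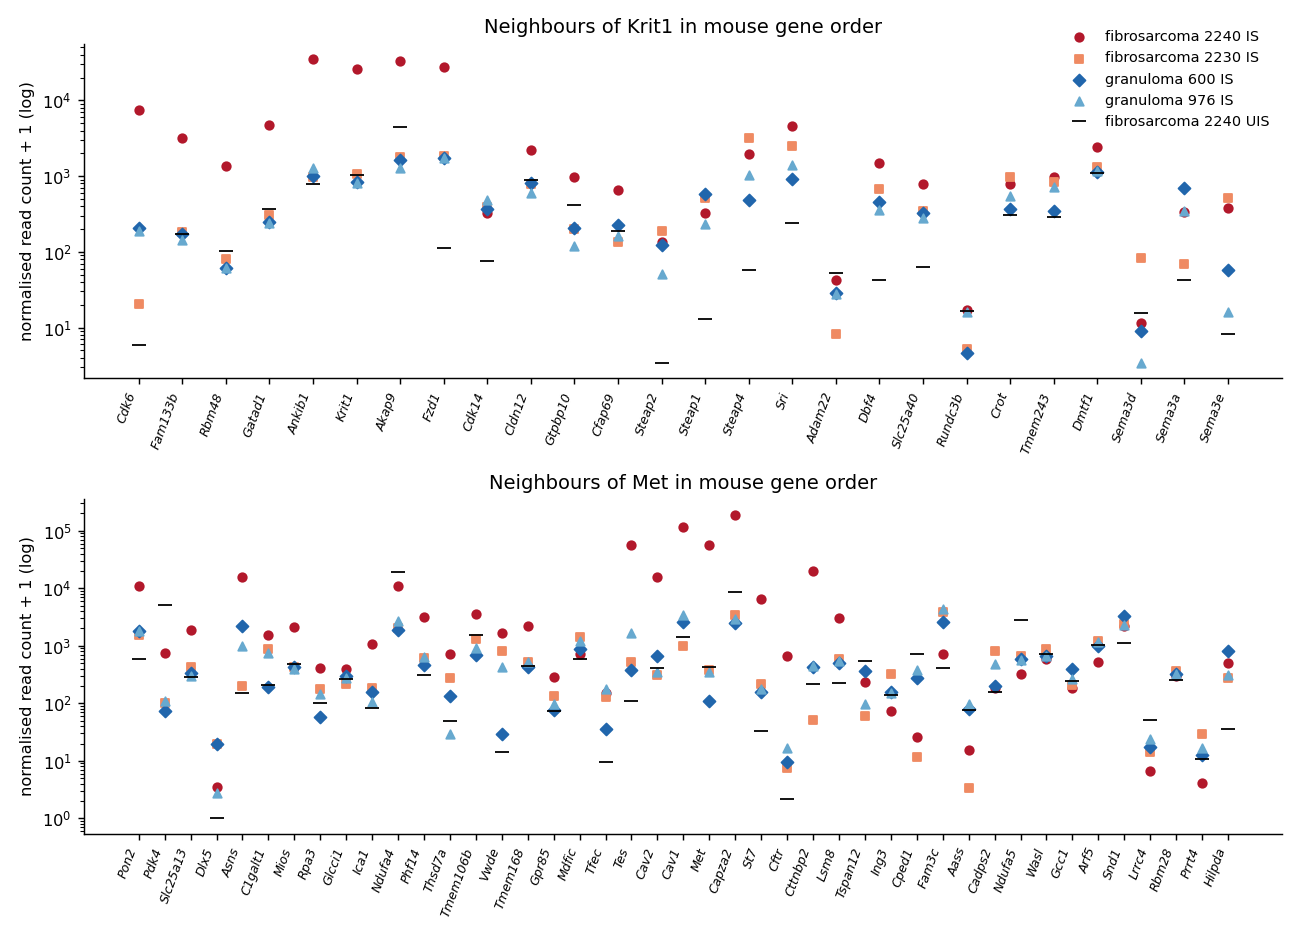
Normalised read count + 1 (log scale) of genes in mouse order around Krit1 (top) and Met (bottom), for the 4 tumor libraries and the UIS of animal 2240 (dashes); each column is 1 gene. The red points of fibrosarcoma 2240 leave the other libraries over Cdk6 to Fzd1 and over Tes to Cttnbp2 and no longer lie above them at Cdk14 and at Tspan12, with Gtpbp10 among the genes above them again past Cdk14.

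The same contrast was also set against the UIS of the same animals. The limma interaction of diagnosis and side called none of the 15584 genes tested (0 calls, 0%), and its lowest adjusted p was 0.083. An unadjusted p under 0.05 was reached by 766 of them, and edgeR, which also made 0 calls, had 833. DESeq2 called 88 in that interaction (0.565%), 16 higher and 72 lower. The fibrillar collagens had a UIS median difference of 1.39, opposite in sign to the -2.47 of the tumors. Lum read 5189 and 2603 on the UIS of the fibrosarcoma animals and 1017 and 211 on that of the granuloma animals, so its lower level in the tumors was not seen in their uninjected muscle.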

How the data were processed

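Single-end RNA-Seq of Spalax tissue was trimmed, mapped with TopHat to a Spalax genome and counted with htseq-count by the authors (the submitters' processing notes name TopHat 1.4.1, HTSeq and DESeq). The deposited values are a signal, gene counts divided by a size factor for each library. Each value was a whole multiple of 1 read (100% within 0.001 reads), so whole reads were recovered. Replicates were not copies. The chi-square per degree of freedom was 387 for the fibrosarcoma pair and 208 for the granuloma pair of tumors. It was 45.0 for the fibrosarcoma UIS pair and 398 for the granuloma UIS pair.

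The main test was limma 3.58.1 with trend on log2(value + 1), 2 against 2 libraries, for genes with a value of at least 10 in 2 libraries, with Benjamini-Hochberg adjustment over all genes. DESeq2 1.42.0 and edgeR 4.0.16 were run on the recovered reads in R 4.3.3, beside other scalings, filters, pseudocounts (0.1 and 10) and fits without each library. IS and UIS samples pair because they share an animal; their deviations from the group means correlated at -0.0036 and 0.0060. Scripts were tested on simulated data, and figures were drawn with matplotlib 3.10.9. The p-values of the tumor comparison rest on the spread between 2 animals a group, which the tests moderate across genes. In tumor fits without 1 library they rest on the spread of the 1 group that keeps both animals. Fits that include UIS, control or tolerant libraries also draw on the spread within those groups. Without the replicate block they treat the IS and UIS of an animal as independent.

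The comparison and gene lists were chosen with earlier results of these data known. Named genes were the study's matrix genes, the 15 largest differences each way among DESeq2 calls without overlap, the 10 smallest limma p-values, list members and the 5 genes farthest above the rest in each library; others are stated as chosen afterwards. The mouse libraries were not used, sequences were not analysed, some genes are not reported here, and 2387 entries whose name joins several genes were left as deposited.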

Additional observations from a re-analysis of the deposited data

How the results depend on the processing

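With 2 animals a group, the number of genes called depended on the tool and on the samples fitted. The main limma fit, which called 0 with 591 at an unadjusted p under 0.05, gave 2 calls (Cfd and Sln) when the UIS libraries of the same animals entered the fit, 19 when all 16 Spalax libraries did, and 153 by DESeq2 on recovered reads; edgeR, other filters, scalings, pseudocounts and each left-out library gave 0. The 153 DESeq2 calls became 262 in a fit of all 16 libraries and 70 to 594 when 1 library was left out, the cause of which was not tested. The interaction with the UIS gave 0 in the limma fit with and without the animal as a replicate block (734 and 766 at an unadjusted p under 0.05) and in edgeR (833), and 88 in DESeq2. The largest between-library distance, 1.51, was 1.68 with a pseudocount of 0.1, 1.23 with 10 and 1.37 with a minimum of 50 in 2 libraries, and the fibrosarcoma pair stayed the most distant in each. Of the 229 genes followed through the alternatives, 16 turned direction in at least 1. Cebpa, at -0.02, was 0.40 in edgeR, 0.38 in DESeq2, 0.075 with scaling by total reads and -1.22 to 1.18 when 1 library was left out. Under that leave-one-out Bmp7 ranged from -2.15 to 1.33, Emilin2 from -0.065 to 2.47 and Mmp8 from -0.027 to 0.44. The other 12 were among the 20 genes named as highest in 1 library. Those of the fibrosarcomas ranged from -0.10 to 6.29 (Abi3bp), -0.75 to 5.73 (Cftr), -3.08 to 5.50 (Cttnbp2), -2.77 to 8.64 (Cxcl14), -3.31 to 8.07 (Prr32), -1.34 to 6.76 (Thy1) and -0.76 to 6.93 (Ttyh1), and those of the granulomas from -6.38 to 0.16 (Actg2), -7.92 to 1.99 (Cytl1), -7.12 to 0.14 (Gtsf1), -4.93 to 0.36 (Irx1) and -6.10 to 1.61 (Nefm). Of the 392 list medians recomputed, 65 moved by more than the spread between replicates. Depth was near equal over the 4 libraries, and with 2 animals a group the diagnosis cannot be told apart from the time after injection.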

Other observations

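Several genes of growth that are imprinted or active mainly before birth were uneven between the 2 fibrosarcomas. Hmga2, a chromatin protein of embryonic tissue, read 878 and 1.8 in the fibrosarcomas and 192 and 84.6 in the granulomas, and the RNA-binding protein gene Igf2bp2 read 1627 and 4.2 in the fibrosarcomas and 1127 and 513 in the granulomas. Peg10, an imprinted gene of retroviral origin, read 2418 and 8.4 in the fibrosarcomas and 821 and 309 in the granulomas. In all 3, fibrosarcoma 2230 was far below the other tumors. Igf1r, the receptor for insulin-like growth factors, read 336 and 86.4 in the fibrosarcomas and 9753 and 38.7 in the granulomas, so granuloma 600, which also held nearly all of the Igf2, was the high library. The 21 tested genes of this list had a median log2 difference of -1.24 (-0.50 without granuloma 600), with 17 lower. In 5 they were lower without overlap (23.8% of the list, against 14.7% of all genes tested). DESeq2 called Igf2 and Igfbp2.

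Citrate cycle genes were higher in 20 of 25 by small amounts, with a median of 0.23 (0.09 without granuloma 600) and none called. In 10 they were higher without overlap (40% of the list, against 16.7% of all genes tested). Pdha1, the pyruvate dehydrogenase subunit that feeds the cycle, read 2849 and 1833 in the fibrosarcomas and 1051 and 1617 in the granulomas. Of 23 antioxidant genes tested 15 were higher and 8 lower, with a median of 0.15 and none called. Without overlap 7 were higher (30.4%, against 16.7% of all genes tested) and 4 lower (17.4%, near the 14.7% of all genes tested). Cat (catalase) read 5116 and 2792 in the fibrosarcomas and 945 and 1391 in the granulomas. Gsr (glutathione reductase) read 820.1 and 715 in the fibrosarcomas and 321 and 164 in the granulomas. Gpx3 and Gpx7 were lower without overlap, with log2 differences of -0.98 and -0.93. Clu (clusterin, a secreted chaperone) spanned the widest range of the complement list, at 118451 and 26409 in the fibrosarcomas and 539 and 57857 in the granulomas. Granuloma 600 was the low library for Clu.

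Fibrosarcoma 2230 had its own set of genes far above the other tumors. Cxcl14, a chemokine of epithelium and stroma, read 1.84 and 7694 in the fibrosarcomas and 79.8 and 3.63 in the granulomas, Abi3bp, a matrix protein, 92.2 and 7849 in the fibrosarcomas and 51.5 and 189.7 in the granulomas, and Ttyh1, a membrane protein of neural cells, 9.84 and 2251 in the fibrosarcomas and 32.7 and 9.06 in the granulomas. In mouse gene order the lowest running median of this library, -2.67, lay at Arhgap31, and a run from Mmp13 to Mmp10 reached -2.40. Granuloma 600 had its lowest, -2.82, at Cd48 and a further run of -2.25 from Psmb9 to Tap2, genes of immune cells and of antigen processing.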
